A study of Rattus norvegicus with 21 samples.

Results

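The solute carriers are membrane transporters whose gene symbols begin with Slc and a family number. Probe sets whose only gene symbol had this form were taken, and those of the organic anion carriers named Slco were not. Where a gene had several probe sets, the one that averaged highest over the 21 arrays stood for it. This gave 228 genes from 281 probe sets, of 10411 genes with a probe set of 1 symbol. Genes were grouped by family number and, in some families, gene by gene. This put 34 genes among the amino acid carriers, 14 among the carriers of glucose and other sugars and 63 among the carriers of inorganic ions and metals. Another 30 were mitochondrial carriers and 85 were all others. The remaining 2, Slc4a1ap and Slc7a6os, bear the name of a carrier gene but encode no carrier, and were set apart once their symbols had been seen. Genes placed one by one include Slc6a5, Slc6a9 and Slc6a20a among the amino acid carriers and Slc17a1 among the ion carriers. The grouping does not follow the place in the cell: Slc25a17 of the mitochondrial family sits in peroxisomes, and Slc8b1, counted with the ion carriers, is the sodium-calcium exchanger of mitochondria.

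Solute carriers move amino acids, sugars, ions, metals, nucleosides and metabolites across the plasma membrane and the membranes of organelles, mostly by facilitated diffusion, exchange or coupling to the gradients of sodium or protons. Growth factors are known to raise the uptake of glucose, phosphate and amino acids in epithelial cells, through carriers such as the glucose transporter Slc2a1 and the pair of Slc7a5 with its heavy chain Slc3a2. Within the cell, the Slc25 family links mitochondria to the cytosol, the Slc30 family moves zinc out of the cytosol, the Slc39 family moves it in, and the Slc35 family brings nucleotide sugars and related substrates to the endoplasmic reticulum and Golgi.

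The measurements come from NBTII, a rat bladder carcinoma line of epithelial character, and from NBTII-FGFR1, which derives from it by transfection with an FGF receptor 1 gene. The series sets this time course in the change of carcinoma cells from epithelial to mesenchymal form. Cells of either line received FGF1 at 20 ng/ml with heparin, and total RNA was taken at 0, 0.5, 2, 6, 24 and 48 h, the 0 h cells being the controls. The 21 Affymetrix arrays, 1 per sample, made 12 groups of line and time, of which 9 held 2 arrays. NBTII at 0 h and either line at 0.5 h had 1 array each, and their spread was borrowed from the other groups. All arrays after 0 h were of cells with FGF1, so FGF1, heparin, handling and time cannot be told apart. The labels do not say whether NBTII-FGFR1 is 1 clone, and they do not say whether the 2 arrays of a group came from separate cultures, so p-values measure the spread between these arrays, which may be technical. In such bulk RNA, fewer cells that hold a transcript and less of it per cell cannot be told apart.

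Levels are the log2 values of the deposited table, in which array medians lay between 6.13 and 6.21. For Fgfr1, the transfected gene, the 10 NBTII arrays read 3.58 to 4.05 and the NBTII-FGFR1 arrays 4.56 to 7.58, apart from one. The library labelled NBTII-FGFR1 0 h, replicate 1, is called the library labelled R0-1 below. It read 3.57 and so went against its label. Across probe sets, however, it correlated best with its labelled partner, NBTII-FGFR1 0 h replicate 2 (r = 0.995). The titles name 2 arrays of NBTII-FGFR1 at 0 h, whereas the design text says that controls were not duplicated, and the titles were followed. Below, NBTII-FGFR1 at 0 h means the 2 arrays labelled so, the first value of each 0 h pair is that of the library labelled R0-1, and every NBTII-FGFR1 difference from 0 h is drawn from both. NBTII-FGFR1 2 h replicate 1 correlated better with NBTII 0.5 h (r = 0.990 across probe sets) than with its own partner (r = 0.988), and that partner correlated best with NBTII 2 h replicate 2 (r = 0.993). These libraries are called the 2 doubted arrays, and counts are given with and without them. The poly-A spikes, control RNAs added during labelling, averaged between 6.13 and 6.64 on the 3 arrays at 0 h, and between 5.33 and 5.72 on the other 18. They thus move with every comparison with 0 h below, and their part in those results was not tested. Of 8 epithelial genes 6 had a mean of 6 or more, while Krt18 averaged 5.75 and Krt19 lay below the lower quartile of every array. No fibroblast gene of 6, leukocyte gene of 5 or endothelial gene of 2 reached a mean of 6. The epithelial genes moved with time: their mean level per array was 8.40 to 8.61 at 0 h, 9.22 to 9.47 at 2 and 6 h and 7.81 to 8.47 at 24 and 48 h over both lines. In NBTII-FGFR1 4 were called higher at 2 h, 4 higher and 1 lower at 6 h and 3 lower at 24 h and at 48 h, where Krt5 had gone from 12.49 and 12.71 to 8.97 and 9.21. The leukocyte gene Cd68 was called higher at 0.5 h (6.68 and 6.42, against 5.19 to 5.61 at 0 h) and between the lines, while Ptprc and Cd3e stayed below the lower quartile. The part of these markers in the results below was not tested.

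Of the 228 solute carrier genes, 106 had a mean level of 6 or more and 122 lay below 6 and are called low, 53.5% against 39.7% of all genes. Slc6a20a (6.13) and Slc25a29 (6.16) lay just above this level, and Slc8a2 (5.97) and Slc45a3 (5.95) just below it. The mitochondrial carriers stood apart with 6 low genes of 30, whereas 20 of 34 amino acid carriers, 9 of 14 sugar carriers, 37 of 63 ion carriers and 50 of 85 others were low. A level depends on the probes as well as the transcript, so it does not rank genes among themselves. Of the 228 genes, 108 were called in at least 1 of the 13 comparisons below, 47.4% against 48.6% of all genes. They were 80 of the 106 with a mean of 6 or more (75.5%, against 66.1% of all genes at such a level) and 28 of the 122 low ones (22.95% against 22.03%). The 120 never called included 11 of the 14 sugar carriers and 9 of the 30 mitochondrial ones.

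**Figure D1:**
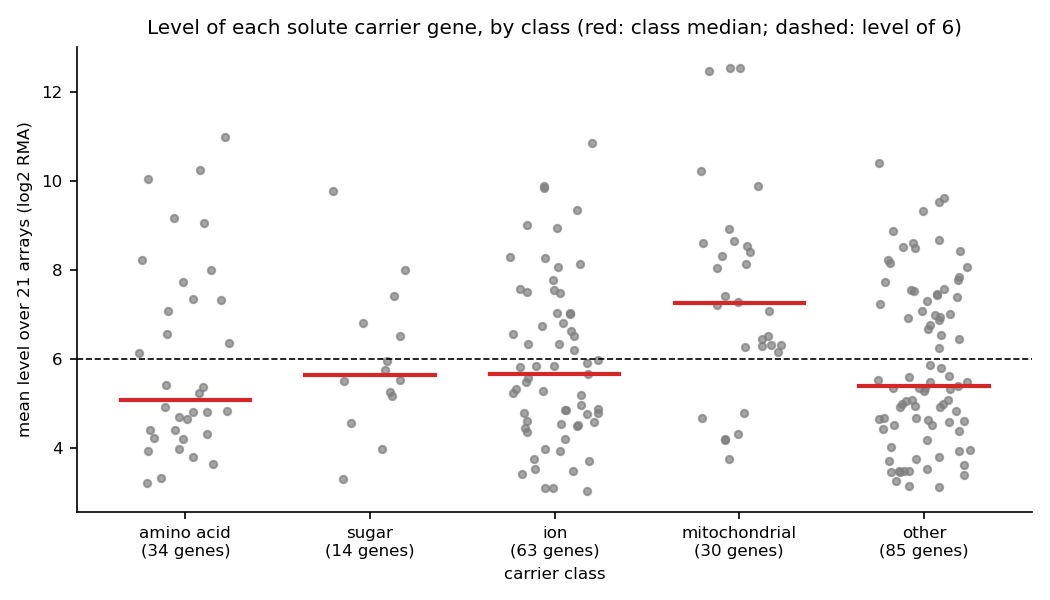
Mean level over the 21 arrays (log2 RMA, vertical axis) of each solute carrier gene (points) in 5 carrier classes, with the class median in red and the level of 6 dashed. The median of the 30 mitochondrial carriers (7.25) lies above 6 and those of the other classes, from 5.09 to 5.67, lie below it.

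In NBTII-FGFR1 the largest numbers of solute carrier genes differed from 0 h at 6 h and 48 h. At 6 h limma called 18 higher and 27 lower, that is 7.89% and 11.8% of them, against 10.4% of all genes higher and 12.5% lower. At 48 h it called 34 higher and 16 lower (14.9% and 7.02%), against 12.3% and 11.4% of all genes. At 2 h it called 10 higher and 5 lower (all genes 5.77% and 4.25%), and at 24 h 9 higher and 8 lower (all genes 4.22% and 2.23%). At 6 h both shares were a little below those of all genes, and at 48 h the share of higher calls was above and that of lower calls below that of all genes. Without the 2 doubted arrays the totals of 15, 45, 17 and 50 at 2, 6, 24 and 48 h became 9, 30, 8 and 37. Without the library labelled R0-1 alone they were 4, 29, 3 and 33, and without replicate 2 at 0 h they were 8, 6 and 32 at 2, 24 and 48 h. Leaving out replicate 2 at 2 h gave 7 calls at 2 h, leaving out replicate 2 at 24 h gave 3 at 24 h, and leaving out replicate 1 or 2 at 48 h gave 32 or 31 at 48 h.

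In NBTII, whose 0 h control is a single array, fewer genes were called from 0 h. At 2 h limma called 6 higher and 1 lower (all genes 2.1% and 1.13%), at 6 h 11 higher and 4 lower (4.12% and 2.53%), at 24 h 1 higher and 2 lower (0.682% and 0.346%) and at 48 h 3 higher and 1 lower (0.682% and 0.394%). All 6 genes called higher at 2 h, Slc2a1, Slc20a1, Slc30a4, Slc30a7, Slc35e4 and Slc4a7, were also among the 11 called higher at 6 h, and the 2 comparisons share the 0 h array. A limma fit of only the 3 arrays of a comparison called none of these genes at 2 h or at 6 h. Without replicate 1 at 2 h 4 genes were called at 2 h, and without replicate 1 at 6 h 8 were called at 6 h. The 3 calls at 24 h became 1 or 0 without replicate 1 or 2 at 24 h and 5 without either NBTII-FGFR1 array at 2 h, and the 4 at 48 h became 1 or 0 without replicate 1 or 2 at 48 h.

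At 0.5 h, over both lines, 5 genes were called, each of them higher than at 0 h (all genes 1.89% higher and 0.471% lower). They were the mitochondrial carrier Slc25a25, the glycine transporter Slc6a9, the glutamine transporter Slc1a5, Slc2a1 and the chloride-bicarbonate exchanger Slc4a2. The count was 2 without the library labelled R0-1, 9 without either NBTII-FGFR1 array at 2 h, and 4 without both doubted arrays. Slc4a2 lost its call in 8 of 18 fits that left out 1 array of the groups with 2, and Slc6a9 without the library labelled R0-1.

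**Figure D2:**
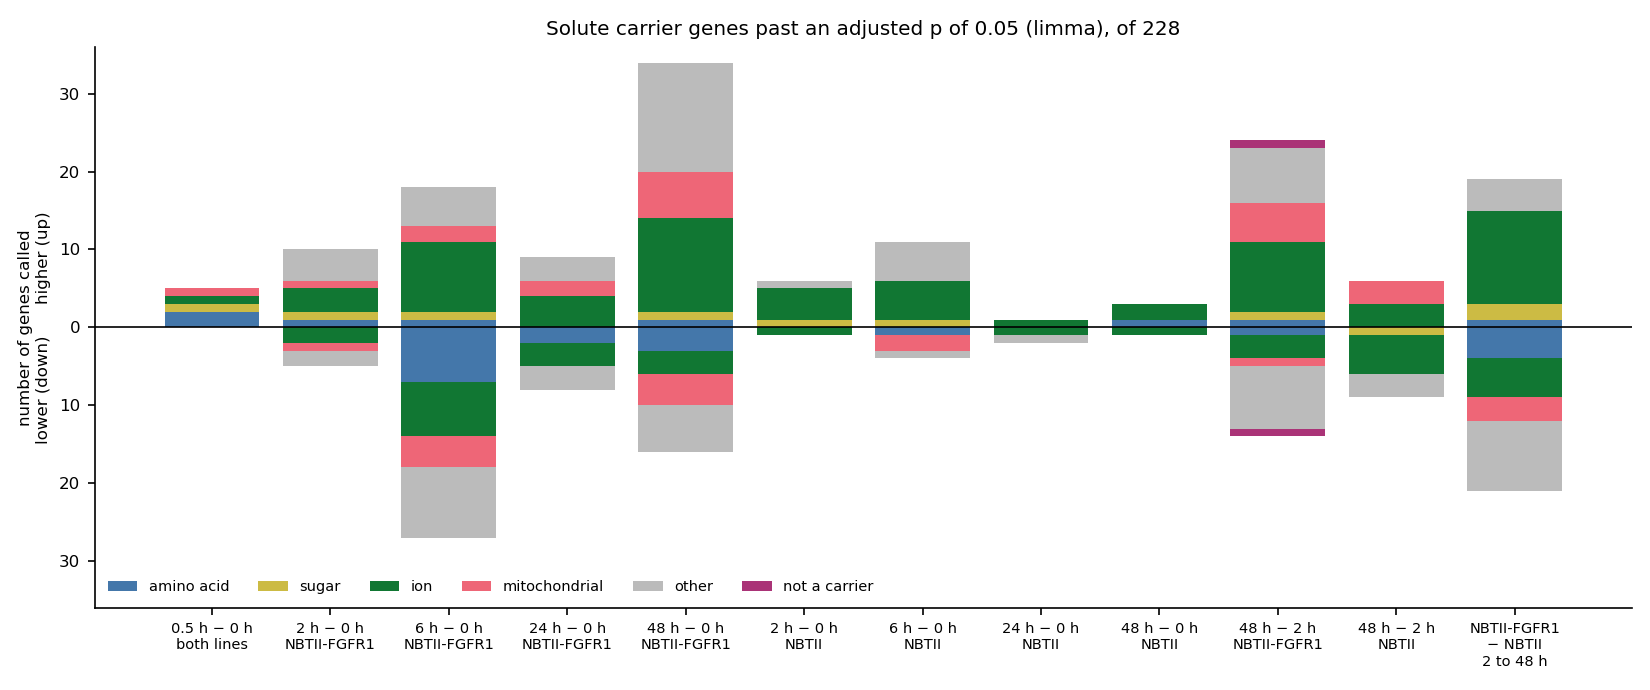
Number of solute carrier genes (vertical axis, of 228) called higher (up) or lower (down) in each of 12 comparisons, coloured by carrier class. The bars reach 34 higher at 48 h and 27 lower at 6 h in NBTII-FGFR1, where 7 of the 27 are amino acid carriers, while none of the NBTII comparisons with 0 h exceeds 11 in either direction.

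Among the amino acid carriers, 7 of 34 fell at 6 h in NBTII-FGFR1 (20.6%, against 12.5% of all genes) and 1 rose (2.94% against 10.4%), the low glycine transporter Slc6a5. The 7 were the glutamate transporter Slc1a3, the arginine and lysine transporter Slc7a1, the glutamine transporters Slc38a1 and Slc1a5, the large neutral amino acid transporter Slc7a5, the exchanger Slc7a6 and the less studied Slc38a10. The median difference over the class was 0.02, as it was over all genes. In NBTII at 6 h the 1 call among the amino acid carriers was Slc1a3, which fell there too. The calls of Slc6a5 and Slc38a10 each depended on single arrays of 0 h and 6 h. For genes among the 228, calls described from here on held in each of the 18 fits that left out 1 array. Exceptions are marked by a named library, a number of fits or a remark.

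For Slc7a1, the 2 libraries labelled NBTII-FGFR1 read 10.88 and 10.91 at 0 h, 10.77 and 10.59 at 2 h, 9.37 and 8.81 at 6 h, 9.995 and 10.06 at 24 h and 10.30 and 10.34 at 48 h. The 6 h arrays were the lowest of all 21 and did not overlap with any other group. The difference from 0 h was -1.80 ± 0.19 (SE) at 6 h (adjusted p = 2.2e-05), and both other probe sets of the gene were called lower too. In NBTII the 0 h array read 9.89, the 0.5 h array 11.18, and the 6 h arrays 10.05 and 10.18, a difference of 0.23 ± 0.23 at 6 h. The line by time test over 2 to 48 h did not reach the threshold for Slc7a1 (adjusted p = 0.080). The smaller difference at 24 h (-0.87) lost its call without any 1 of the arrays of NBTII-FGFR1 at 0 h or 24 h and without both doubted arrays, and that at 48 h (-0.58) lost it in 10 of the 18 fits.

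For Slc38a1, NBTII-FGFR1 read 8.26 and 8.39 at 0 h and 7.32 and 7.26 at 6 h, and had come back to 8.25 and 8.17 at 24 h and 8.62 and 8.54 at 48 h. It fell by 1.04 ± 0.13 at 6 h (adjusted p = 7.7e-05), and its 2 other probe sets were called lower as well. NBTII read 7.98 at 0 h and 7.71 and 8.02 at 6 h, which straddle the control. The 2 other probe sets, however, were lower in NBTII at 6 h. Their group means went from 7.71 to 6.85 and from 6.22 to 6.05. Slc1a5 was also lower at 6 h, with 9.19 and 9.37 at 0 h and 8.49 and 8.09 at 6 h in NBTII-FGFR1, a difference of -0.99 ± 0.17 (adjusted p = 0.00067). In NBTII its group means went the other way, from 8.28 at 0 h to 8.70 at 6 h and 9.30 at 48 h. It was called higher there at 48 h, though not in all of the 18 fits. At 0.5 h it had been higher over both lines by 0.74 ± 0.16, a call that was lost without the library labelled R0-1 (adjusted p = 0.072) but held without both doubted arrays (adjusted p = 0.038).

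Slc7a5 and Slc3a2 encode the light and heavy chain of one transporter. Slc7a5 read 9.70 and 9.49 at 0 h and 8.63 and 8.76 at 6 h in NBTII-FGFR1 and stayed between 8.73 and 8.89 at 24 and 48 h. The 6 h arrays were below both controls, but the difference of -0.90 ± 0.25 (adjusted p = 0.016) was no longer called without the library labelled R0-1 (adjusted p = 0.12), without either 6 h array, or without both doubted arrays (adjusted p = 0.092). In NBTII the highest arrays of Slc7a5 were those of 48 h, at 9.91 and 10.03, against 8.96 at 0 h. For the heavy chain Slc3a2 the NBTII-FGFR1 arrays read 10.98 and 11.07 at 0 h and 10.82 and 10.24 at 6 h, a difference of -0.49 ± 0.22 that was not called (adjusted p = 0.14). Slc38a2, a glutamine transporter known to respond to amino acid supply, differed by -0.69 ± 0.27 at 6 h and was not called either (adjusted p = 0.081).

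Promoter sequence was available from RefSeq (assembly GRCr8) for 193 of the 228 genes, matched by gene ID, and the 250 bases before each start were searched on both strands for 4 motifs. Windows are shown for the carriers that fell at 6 h in NBTII-FGFR1 and hold a match to TGATGNAA, the ATF4-C/EBP element of amino acid response genes, or to the E-box CACGTG, the element of MYC and related factors. The capitals mark the matches, with TGANTCA (AP-1) and TGACGTCA (CRE) where these were also found, and no match overlaps another in these windows. The first windows are of Slc7a1 (chr12:11664433-11664487, plus strand) and Slc38a1 (chr7:129681511-129681651, minus strand), 2 of the 5 falling amino acid carriers with a promoter sequence, and each holds a TGATGNAA match.
Slc7a1: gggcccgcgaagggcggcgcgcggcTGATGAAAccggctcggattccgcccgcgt
Slc38a1: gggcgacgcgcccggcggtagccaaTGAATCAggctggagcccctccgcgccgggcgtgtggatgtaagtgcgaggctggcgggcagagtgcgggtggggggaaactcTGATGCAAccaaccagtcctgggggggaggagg
The Slc7a1 match spans bases -30 to -23 from the start and the Slc38a1 match bases -142 to -135, with TGAATCA at -225 to -219. The motif is in 3.27% of all 27457 promoters and 1.99% of the 8630 promoters of genes on the arrays.

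The E-box CACGTG was in 6 of the 23 promoters of solute carrier genes that fell at 6 h in NBTII-FGFR1 and in 1 of the 14 promoters of those that rose. It was in 22 of the 193 solute carrier promoters (11.4%), 7.89% of those of genes on the arrays and 5.79% of all promoters. The 6 windows are of Slc7a5 (chr19:66872561-66872616, minus strand), the vitamin transporter Slc5a6 (chr6:31040186-31040241, plus strand), the mitochondrial pyrimidine nucleotide carrier Slc25a33 (chr5:165503004-165503082, minus strand), the nucleoside transporter Slc29a2 (chr1:211757138-211757193, plus strand), the zinc transporter Slc30a5 (chr2:33710030-33710085, minus strand) and Slc39a11 of the zinc importer family (chr10:99110457-99110488, minus strand). Slc30a5 lost its call without NBTII-FGFR1 0 h replicate 2 or 6 h replicate 2, and Slc39a11 without the library labelled R0-1.
Slc7a5: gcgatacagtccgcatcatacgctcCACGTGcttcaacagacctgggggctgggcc
Slc5a6: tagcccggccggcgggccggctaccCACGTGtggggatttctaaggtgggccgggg
Slc25a33: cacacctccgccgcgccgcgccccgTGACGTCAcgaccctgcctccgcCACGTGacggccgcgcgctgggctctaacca
Slc29a2: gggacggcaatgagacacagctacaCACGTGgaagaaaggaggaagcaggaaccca
Slc30a5: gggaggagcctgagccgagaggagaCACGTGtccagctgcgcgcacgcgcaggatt
Slc39a11: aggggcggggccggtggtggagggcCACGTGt
The Slc25a33 window also holds a TGACGTCA at -84 to -77, before its E-box at -61 to -56. These matches are descriptions of letters in a window and were not tested against the expression values.

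Slc1a3 showed the largest fall of all solute carrier genes. In NBTII-FGFR1 it read 9.23 and 8.96 at 0 h, 9.24 and 9.01 at 2 h, 6.55 and 6.11 at 6 h, 7.29 and 6.44 at 24 h and 5.70 and 5.56 at 48 h. In NBTII it read 9.47 at 0 h, 9.08 and 8.98 at 2 h, 7.89 and 7.47 at 6 h, 8.45 and 7.46 at 24 h and 8.90 and 7.93 at 48 h. Every array from 6 h on lay below every earlier array in either line, and at 6, 24 and 48 h the NBTII-FGFR1 arrays lay below those of NBTII. The fall from 0 h was called in NBTII-FGFR1 at 6 h (-2.76 ± 0.34, adjusted p = 7.2e-05), 24 h (-2.23 ± 0.34, adjusted p = 0.0022) and 48 h (-3.46 ± 0.34, adjusted p = 9.9e-06). In NBTII it was called at 6 h (-1.79 ± 0.42, adjusted p = 0.019), but not without NBTII 6 h replicate 2. A second probe set moved the same way by -2.35 and -2.83 at 6 and 48 h in NBTII-FGFR1. The remaining probe set of the gene had group means between 3.80 and 4.58 and was called higher there by 0.77 and 0.60.

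The low amino acid carrier Slc7a7, which exchanges cationic for neutral amino acids, rose at 48 h in NBTII-FGFR1. Its arrays read 4.46 and 4.39 at 0 h, between 4.05 and 5.11 from 0.5 to 24 h, and 5.71 and 5.76 at 48 h, above all 19 other arrays. The difference of 1.32 ± 0.18 (adjusted p = 0.00014) held without both doubted arrays (1.35). In NBTII the 48 h arrays read 4.69 and 4.66 and differed from 0 h by 0.42 ± 0.22, which was not called.

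Of the 14 sugar carriers, Slc2a1, the basal glucose transporter, was called in 8 of the 13 comparisons, Slc45a4 and Slc50a1 in 1 each and the other 11 in none. In NBTII-FGFR1, Slc2a1 read 9.42 and 9.31 at 0 h, 9.98 at 0.5 h, 10.42 and 10.68 at 2 h, 10.45 and 10.31 at 6 h, 9.38 and 9.33 at 24 h and 10.30 and 10.09 at 48 h. In NBTII it read 8.82 at 0 h, 9.69 at 0.5 h, 10.26 and 10.07 at 2 h, 10.03 and 9.91 at 6 h, 9.33 and 8.78 at 24 h and 9.44 and 9.38 at 48 h. In either line it was high at 2 and 6 h and back near the 0 h level at 24 h, and at 48 h the NBTII-FGFR1 arrays lay above all controls again. It rose over both lines at 0.5 h by 0.74 ± 0.15 (adjusted p = 0.016), in NBTII-FGFR1 by 1.18 ± 0.16 at 2 h, 1.02 ± 0.16 at 6 h and 0.82 ± 0.16 at 48 h, and in NBTII by 1.35 ± 0.19 at 2 h and 1.16 ± 0.19 at 6 h. The adjusted p of these 5 line and time contrasts lay between 0.00029 (NBTII-FGFR1 2 h) and 0.0027 (NBTII 6 h). From 2 to 48 h it fell by 0.76 ± 0.16 in NBTII (adjusted p = 0.011), a call lost without NBTII 2 h replicate 1 or either 48 h array.

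The glucose transporters Slc2a3 and Slc2a4, both low genes, and Slc37a4 spanned narrow ranges. Slc2a3, of high glucose affinity, lay between 3.74 and 4.24 in all 21 arrays, below the lower quartile of each. A narrow range at such a level need not mean a steady transcript. Slc2a4, the insulin-responsive transporter, lay between 4.90 and 5.53. Slc37a4, the glucose phosphate transporter of the endoplasmic reticulum, lay between 7.78 and 8.39. None of the 3 was called in any comparison. The sugar exporter Slc50a1 read 6.85 and 7.31 at 2 h, 6.62 and 6.89 at 6 h and 7.63 and 7.70 at 48 h in NBTII-FGFR1. Its rise from 2 to 48 h in NBTII-FGFR1 (0.58 ± 0.18, adjusted p = 0.034) was lost without NBTII-FGFR1 2 h replicate 1, either 48 h array or both doubted arrays.

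**Figure D3:**
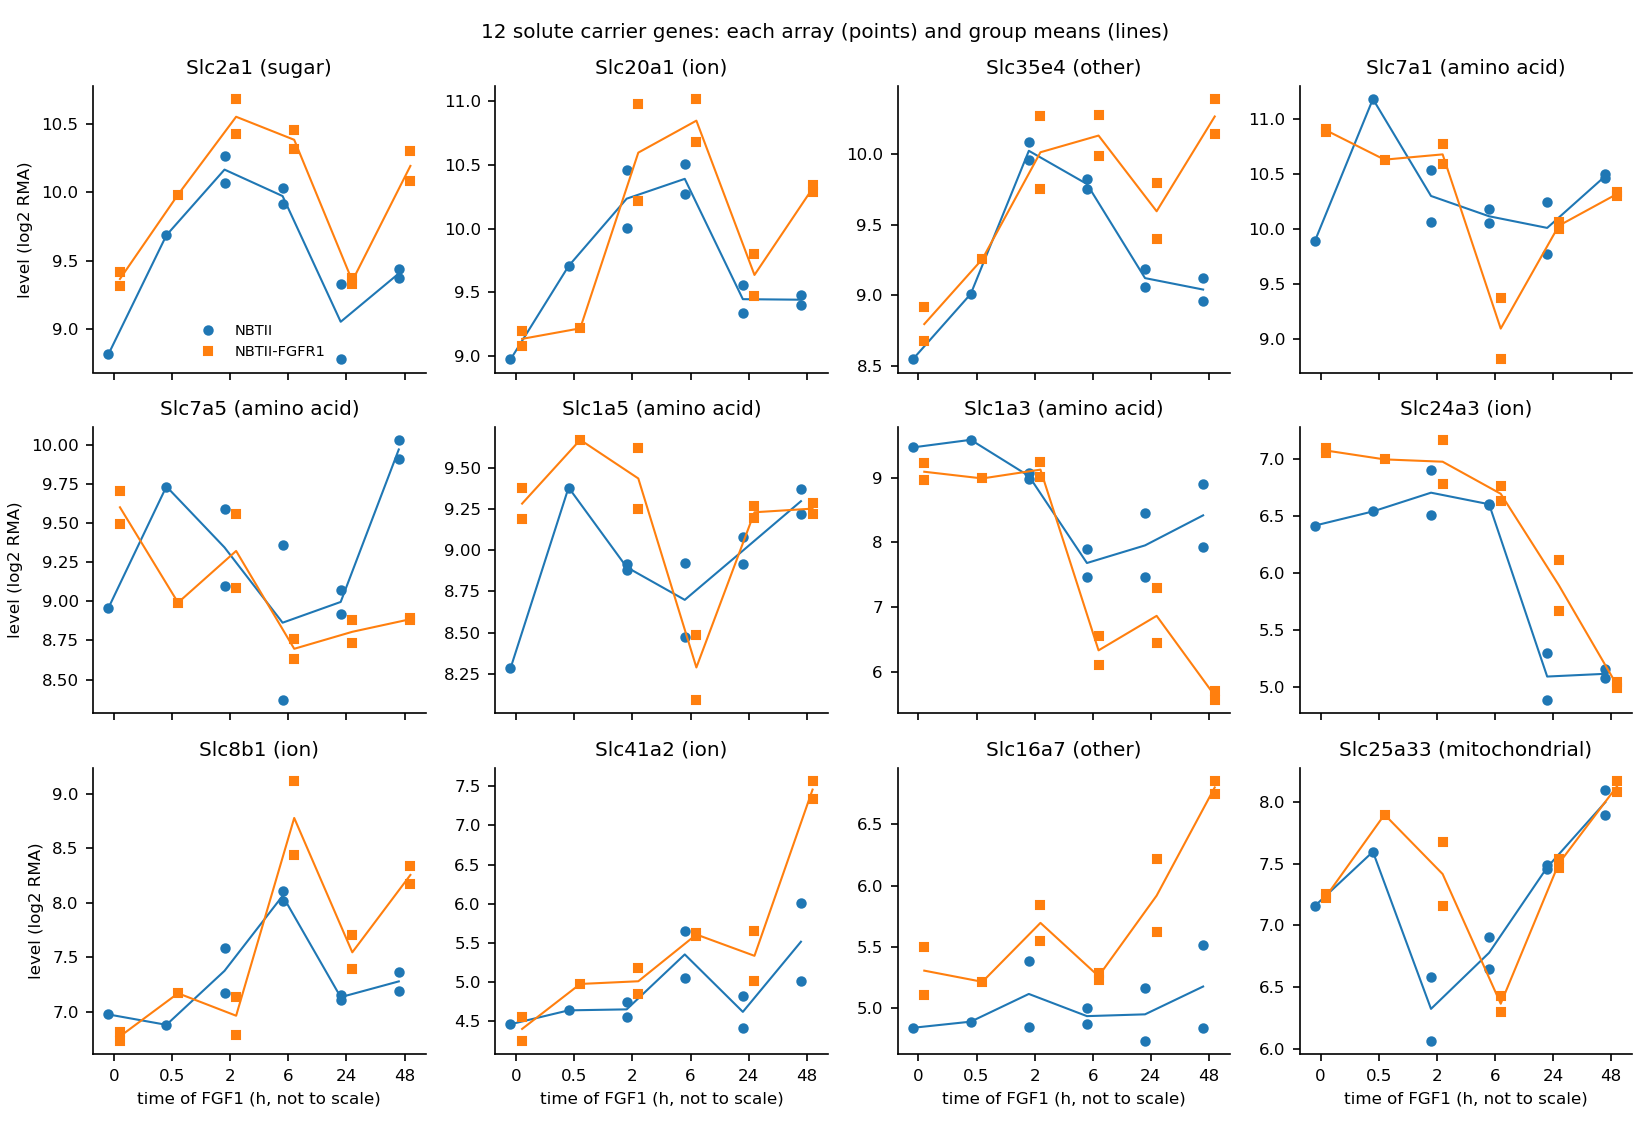
Level (log2 RMA, vertical axes, which do not start at 0) of 12 solute carrier genes at 0, 0.5, 2, 6, 24 and 48 h of FGF1 (horizontal axis, not to scale) in each NBTII (circles) and NBTII-FGFR1 (squares) array, with lines through the group means. Slc2a1, Slc20a1 and Slc35e4 are high at 2 and 6 h in either line, Slc1a3 and Slc24a3 decline, and Slc41a2 and Slc16a7 are highest in the NBTII-FGFR1 arrays of 48 h.

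Among the 63 ion carriers, 9 rose and 7 fell at 6 h and 12 rose and 3 fell at 48 h in NBTII-FGFR1, and in NBTII 4 rose and 1 fell at 2 h and the 5 called at 6 h rose. In NBTII-FGFR1 these are 14.29% and 11.1% at 6 h, against 10.4% and 12.5% of all genes, and 19.05% and 4.76% at 48 h, against 12.3% and 11.4%. In NBTII 6.35% rose and 1.59% fell at 2 h, against 2.1% and 1.13% of all genes, and 7.94% rose at 6 h, against 4.12%. The median differences of the class, 0.00 and 0.01 at 6 and 48 h in NBTII-FGFR1, were close to those of all genes, 0.02 and -0.03. Slc20a1, the sodium-phosphate cotransporter, was also high at 2 and 6 h. It read 9.19 and 9.08 at 0 h, 10.21 and 10.98 at 2 h, 10.68 and 11.02 at 6 h, 9.47 and 9.80 at 24 h and 10.35 and 10.29 at 48 h in NBTII-FGFR1, and 8.97, then 10.01 and 10.46, 10.27 and 10.51, 9.56 and 9.33, and 9.40 and 9.48 at the same times in NBTII. All arrays of 2 and 6 h lay above all others except those of NBTII-FGFR1 at 48 h. The rises in NBTII-FGFR1 were 1.46 ± 0.22 at 2 h (adjusted p = 0.00062), 1.71 ± 0.22 at 6 h (adjusted p = 8.5e-05) and 1.18 ± 0.22 at 48 h (adjusted p = 0.0011). In NBTII they were 1.26 ± 0.27 at 2 h (adjusted p = 0.018, lost without NBTII 2 h replicate 2) and 1.42 ± 0.27 at 6 h (adjusted p = 0.0056). Its relative Slc20a2 was called higher in NBTII-FGFR1 at 48 h (0.51 ± 0.12, adjusted p = 0.0049).

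Zinc carriers moved in both directions. Slc30a7, which loads zinc into the Golgi, read 7.17 and 7.05 at 0 h and 8.42 and 8.38 at 6 h in NBTII-FGFR1, and 6.96 and then 8.34 and 8.53 in NBTII. It rose at 6 h by 1.29 ± 0.15 (adjusted p = 4.2e-05) and 1.47 ± 0.18 (adjusted p = 0.00034), and the 4 arrays of 6 h were the highest of the 21. Slc30a4, of zinc-loaded vesicles, read 9.39 and 9.61 at 0 h and 10.31 and 10.55 at 48 h in NBTII-FGFR1 (0.93 ± 0.15, adjusted p = 0.00042). In NBTII it went from 8.88 at 0 h to 9.98 and 10.03 at 6 h (1.12 ± 0.18, adjusted p = 0.0023). The importer Slc39a1 read 8.04 and 8.30 at 0 h and 9.08 and 8.77 at 6 h in NBTII-FGFR1 (0.75 ± 0.14, adjusted p = 0.0014). Slc30a1, the exporter of the plasma membrane and a low gene, went the other way, from 6.13 and 5.84 to 5.04 and 4.52 (-1.21 ± 0.31, adjusted p = 0.010), but lost its call without the library labelled R0-1 or NBTII-FGFR1 6 h replicate 2. Slc39a13, a zinc transporter of intracellular membranes, rose from 2 to 48 h in NBTII by 1.09 ± 0.18 (adjusted p = 0.0023), its 2 h arrays at 7.04 and 7.29 being the lowest of all. It had been called lower at 2 h than at 0 h in both lines. The group means went from 8.09 to 7.16 in NBTII, where the mean at 48 h was 8.26, and from 8.23 to 7.53 in NBTII-FGFR1. Whether the calls at 2 h held when single arrays were left out is not given here.

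The carriers that exchange sodium for calcium parted by family member. Slc8b1, the mitochondrial exchanger, read 6.73 and 6.82 at 0 h, 6.79 and 7.14 at 2 h, 8.44 and 9.12 at 6 h, 7.39 and 7.70 at 24 h and 8.17 and 8.34 at 48 h in NBTII-FGFR1. It rose by 2.00 ± 0.20 at 6 h (adjusted p = 1.6e-05) and 1.48 ± 0.20 at 48 h (adjusted p = 0.00011), the 6 h difference being the largest rise of any member at that time. In NBTII it read 6.98 at 0 h, 8.11 and 8.02 at 6 h and 7.37 and 7.19 at 48 h, and rose at 6 h by 1.09 ± 0.24 (adjusted p = 0.016, lost without NBTII 6 h replicate 1). Slc8a1, the plasma membrane exchanger and a low gene, read 6.18 and 6.51 at 0 h and 5.30 and 4.93 at 6 h in NBTII-FGFR1. It fell there by 1.24 ± 0.19 at 6 h (adjusted p = 0.00041) and 1.19 ± 0.19 at 48 h (adjusted p = 0.00051), and its second probe set was called in none of the comparisons in which the first was.

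Slc24a3, which exchanges sodium for calcium and potassium, declined late in either line. It read 7.05 and 7.09 at 0 h, 6.76 and 6.63 at 6 h, 6.12 and 5.67 at 24 h and 4.99 and 5.05 at 48 h in NBTII-FGFR1. In NBTII it read 6.42 at 0 h, 6.61 and 6.60 at 6 h, 5.30 and 4.89 at 24 h and 5.08 and 5.16 at 48 h. The arrays of 24 and 48 h lay below all earlier ones in both lines, and those of NBTII were already at 48 h levels at 24 h. From 2 to 48 h, a comparison without the 0 h arrays, it fell by 1.96 ± 0.18 in NBTII-FGFR1 (adjusted p = 6.9e-06) and by 1.59 ± 0.18 in NBTII (adjusted p = 0.00014). A second probe set of Slc24a3, with group means of 4.82 to 5.23, was called in none of the comparisons in which the first was.

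Slc41a2, a magnesium transporter, showed the largest rise of all solute carrier genes at 48 h. It read 4.55 and 4.24 at 0 h, 5.17 and 4.84 at 2 h, 5.58 and 5.63 at 6 h, 5.01 and 5.65 at 24 h and 7.35 and 7.58 at 48 h in NBTII-FGFR1. In NBTII it was 4.45 at 0 h and 5.01 and 6.01 at 48 h. The 48 h arrays of NBTII-FGFR1 stood more than 1 log2 unit above every other array of a gene whose mean over all arrays, 5.23, counts as low. The rise was 3.07 ± 0.29 from 0 h (adjusted p = 6.7e-06) and 2.46 ± 0.29 from 2 h (adjusted p = 5.6e-05), and in NBTII the difference from 0 h was 1.06 ± 0.35 and not called (adjusted p = 0.20). Its relative Slc41a3 rose too, from 6.04 and 6.15 at 0 h to 7.34 and 7.19 at 48 h in NBTII-FGFR1 (1.17 ± 0.13, adjusted p = 2.3e-05).

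Slc4a7, the sodium-bicarbonate cotransporter, read 7.97 at 0 h in NBTII and 9.11 and 9.45 at 2 h, 9.49 and 9.34 at 6 h and 9.32 and 9.04 at 48 h. It rose there by 1.31 ± 0.21 at 2 h (adjusted p = 0.0037) and 1.45 ± 0.21 at 6 h (adjusted p = 0.0012). In NBTII-FGFR1 the 0 h arrays read 8.64 and 8.48, the 6 h arrays 9.0 and 8.66 and the 48 h arrays 9.84 and 9.84, and the call came at 48 h only among the times tested (1.28 ± 0.17, adjusted p = 0.00013). As the single NBTII control was the lowest of all 21 arrays, the NBTII differences rest on it. Slc12a2, the sodium-potassium-chloride cotransporter, fell at 6 h in NBTII-FGFR1, from 11.17 and 10.89 to 10.10 and 10.06 (-0.95 ± 0.17, adjusted p = 0.0010). In NBTII its 6 h arrays, 11.01 and 10.79, lay above the control of 10.70.

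Of the 30 mitochondrial carriers, 2 rose and 4 fell at 6 h and 6 rose and 4 fell at 48 h in NBTII-FGFR1. These are 6.67% and 13.3% at 6 h, against 10.4% and 12.5% of all genes, and 20.0% and 13.3% at 48 h, against 12.3% and 11.4%. The median difference of the class at 6 h was -0.15, against 0.02 over all genes. Slc25a12, the aspartate-glutamate carrier, read 7.66 and 7.66 at 0 h and 6.50 and 6.93 at 6 h in NBTII-FGFR1, and 7.73 and then 6.58 and 6.85 in NBTII. It fell at 6 h by 0.95 ± 0.14 (adjusted p = 0.00031) and 1.01 ± 0.17 (adjusted p = 0.0033), its 6 h arrays were the lowest of the 21, and the 4 arrays of 24 h read 7.45 or more. Slc25a15, the ornithine carrier, fell in NBTII-FGFR1 from 6.59 and 6.60 to 5.70 and 5.23 (-1.13 ± 0.18, adjusted p = 0.00044). Slc25a14, of the uncoupling protein group, rose there from 5.95 and 5.94 to 6.83 and 6.94 (0.94 ± 0.16, adjusted p = 0.00083).

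Slc25a25, an ATP-magnesium/phosphate carrier controlled by calcium, peaked early. It read 5.97 and 5.82 at 0 h, 6.91 at 0.5 h, 7.33 and 7.0 at 2 h and 5.64 and 6.14 at 6 h in NBTII-FGFR1, and 5.97, 7.23, then 6.53 and 6.80, and 5.62 and 5.96 in NBTII. The arrays of 0.5 and 2 h lay above those of 0 and 6 h in either line. Over both lines it rose by 1.13 ± 0.19 at 0.5 h (adjusted p = 0.0042), the largest of the 5 calls at that time, and in NBTII-FGFR1 by 1.27 ± 0.20 at 2 h (adjusted p = 0.00097).

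Slc25a33, the pyrimidine nucleotide carrier, was the only solute carrier gene called in the line by time test over 2, 6, 24 and 48 h (adjusted p = 0.048, with 0.49% of all genes called). At 2 h its NBTII-FGFR1 arrays read 7.68 and 7.16 and its NBTII arrays 6.06 and 6.58, without overlap. At 6 h the order turned, with 6.43 and 6.30 in NBTII-FGFR1 and 6.65 and 6.91 in NBTII, and at 48 h the lines met, with 8.08 and 8.17 against 7.90 and 8.10. From 2 to 48 h it rose by 1.67 ± 0.18 in NBTII (adjusted p = 7.7e-05) and by 0.71 ± 0.18 in NBTII-FGFR1 (adjusted p = 0.012, lost without NBTII-FGFR1 2 h replicate 2 or either 48 h array). In NBTII-FGFR1 it fell by 0.87 ± 0.18 at 6 h (adjusted p = 0.0025) and rose by 0.89 ± 0.18 at 48 h (adjusted p = 0.0021). The count in the line by time test ran from 0 to 15 genes as single arrays were left out, 15 without NBTII-FGFR1 2 h replicate 2 and 8 without NBTII 2 h replicate 2, and it was 0 without both doubted arrays.

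The citrate carrier Slc25a1 rose at 48 h in NBTII-FGFR1, from 8.68 and 8.59 to 9.71 and 9.51 (0.97 ± 0.17, adjusted p = 0.00081). The carriers that serve oxidative phosphorylation varied little. The phosphate carrier Slc25a3 lay between 12.27 and 12.71 in all arrays, and the ADP/ATP carriers Slc25a4 and Slc25a5 between 12.23 and 12.72 and between 12.28 and 12.71. The 48 h arrays of NBTII-FGFR1 were the lowest for Slc25a3 and Slc25a5, with differences from 0 h of -0.37 ± 0.10 (adjusted p = 0.012) and -0.38 ± 0.11 (adjusted p = 0.018), and neither call held without both doubted arrays. Each was also lost without the library labelled R0-1 or NBTII-FGFR1 48 h replicate 1, and that of Slc25a5 also without replicate 2 of either time.

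Among the 85 other carriers, Slc35e4, an orphan of the nucleotide sugar transporter families, was called in the most comparisons with 0 h. It read 8.68 and 8.91 at 0 h, 9.75 and 10.27 at 2 h, 9.99 and 10.27 at 6 h, 9.39 and 9.79 at 24 h and 10.39 and 10.14 at 48 h in NBTII-FGFR1. In NBTII it read 8.55 at 0 h, 10.09 and 9.96 at 2 h, 9.75 and 9.82 at 6 h, 9.06 and 9.19 at 24 h and 8.96 and 9.12 at 48 h. The lines overlapped at 2 h and parted at 48 h. It rose in NBTII-FGFR1 by 1.22 ± 0.18 at 2 h, 1.33 ± 0.18 at 6 h and 1.47 ± 0.18 at 48 h (adjusted p = 0.00053, 0.00012 and 4.8e-05), and in NBTII by 1.48 ± 0.22 at 2 h (adjusted p = 0.0018) and 1.24 ± 0.22 at 6 h (adjusted p = 0.0036). From 2 to 48 h it fell in NBTII by 0.98 ± 0.18 (adjusted p = 0.0047), lost without NBTII 48 h replicate 1.

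The monocarboxylate transporters carry lactate and pyruvate. Slc16a7, a low gene, climbed in NBTII-FGFR1 from 5.11 and 5.5 at 0 h to 5.62 and 6.22 at 24 h and 6.86 and 6.75 at 48 h. It stayed between 4.73 and 5.51 in the 10 NBTII arrays. Its rise was 1.5 ± 0.25 at 48 h (adjusted p = 0.00055), and in NBTII the difference was 0.34 ± 0.30. Slc16a1 ranged from 8.28 to 10.01 with replicates as far apart as 9.40 and 8.44 (NBTII-FGFR1 at 2 h), and its rise from 2 to 48 h in NBTII-FGFR1 (1.04 ± 0.34, adjusted p = 0.047) was lost in 11 of the 18 fits that left out 1 array. Slc16a3, a low gene, lay between 4.97 and 5.81 and was called in no comparison.

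Slc44a2, a choline transporter-like gene, fell at 6 h in NBTII-FGFR1 from 8.08 and 7.88 to 6.68 and 6.54 (-1.37 ± 0.20, adjusted p = 0.00028) and read 6.87 and 6.83 at 48 h (-1.13 ± 0.20, adjusted p = 0.00097). Slc29a2, of nucleoside transport, fell from 7.17 and 7.81 to 6.23 and 6.18 at 6 h (-1.28 ± 0.22, adjusted p = 0.00077), and Slc5a6 from 8.58 and 8.88 to 7.89 and 7.79 (-0.89 ± 0.14, adjusted p = 0.00039). The folate transporter Slc19a1 fell too, from 8.44 and 8.33 to 7.73 and 7.48 at 6 h (-0.78 ± 0.16, adjusted p = 0.0032). In each of these genes both 6 h arrays of NBTII-FGFR1 lay below both controls. Slc44a2 was called lower at 6 h in NBTII too, with group means of 7.95 at 0 h and 7.01 at 6 h. Whether that call held in the 18 fits is not given here. The vesicular glutamate transporter gene Slc17a6 went up instead, from 5.70 and 5.46 to 6.86 and 7.58 in NBTII-FGFR1 (1.65 ± 0.28, adjusted p = 0.00069) and from 5.26 to 6.83 and 6.83 in NBTII (1.57 ± 0.34, adjusted p = 0.013, lost without NBTII 6 h replicate 1). Slc35b1, which imports ATP into the endoplasmic reticulum, stood at 11.16 and 11.18 in NBTII-FGFR1 at 48 h, above its 19 other arrays (0.99 ± 0.15 from 0 h, adjusted p = 0.00034), though its second probe set was not called.

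Slc22a23, an orphan of the organic ion transporter family, read 7.37 and 7.34 at 2 h and 5.92 and 5.99 at 48 h in NBTII-FGFR1, without overlap. It fell by 1.40 ± 0.17 from 2 to 48 h (adjusted p = 8.8e-05) and by 1.03 ± 0.17 from 0 to 48 h (adjusted p = 0.00065), and its second probe set was not called. In NBTII the 2 h arrays read 6.37 and 6.74, the 24 h arrays 5.62 and 5.78 and the 48 h arrays 6.39 and 6.15. Slc17a1, a low gene of phosphate and urate transport, was highest in NBTII-FGFR1 24 h replicate 2 (5.77) and at 48 h (5.5 and 5.79), and its rise from 2 to 48 h (1.17 ± 0.27, adjusted p = 0.0085) was lost without NBTII-FGFR1 48 h replicate 2. The choline transporter-like Slc44a1, in contrast to its relative Slc44a2, stayed between 9.35 and 9.95 in all 21 arrays.

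**Figure D4:**
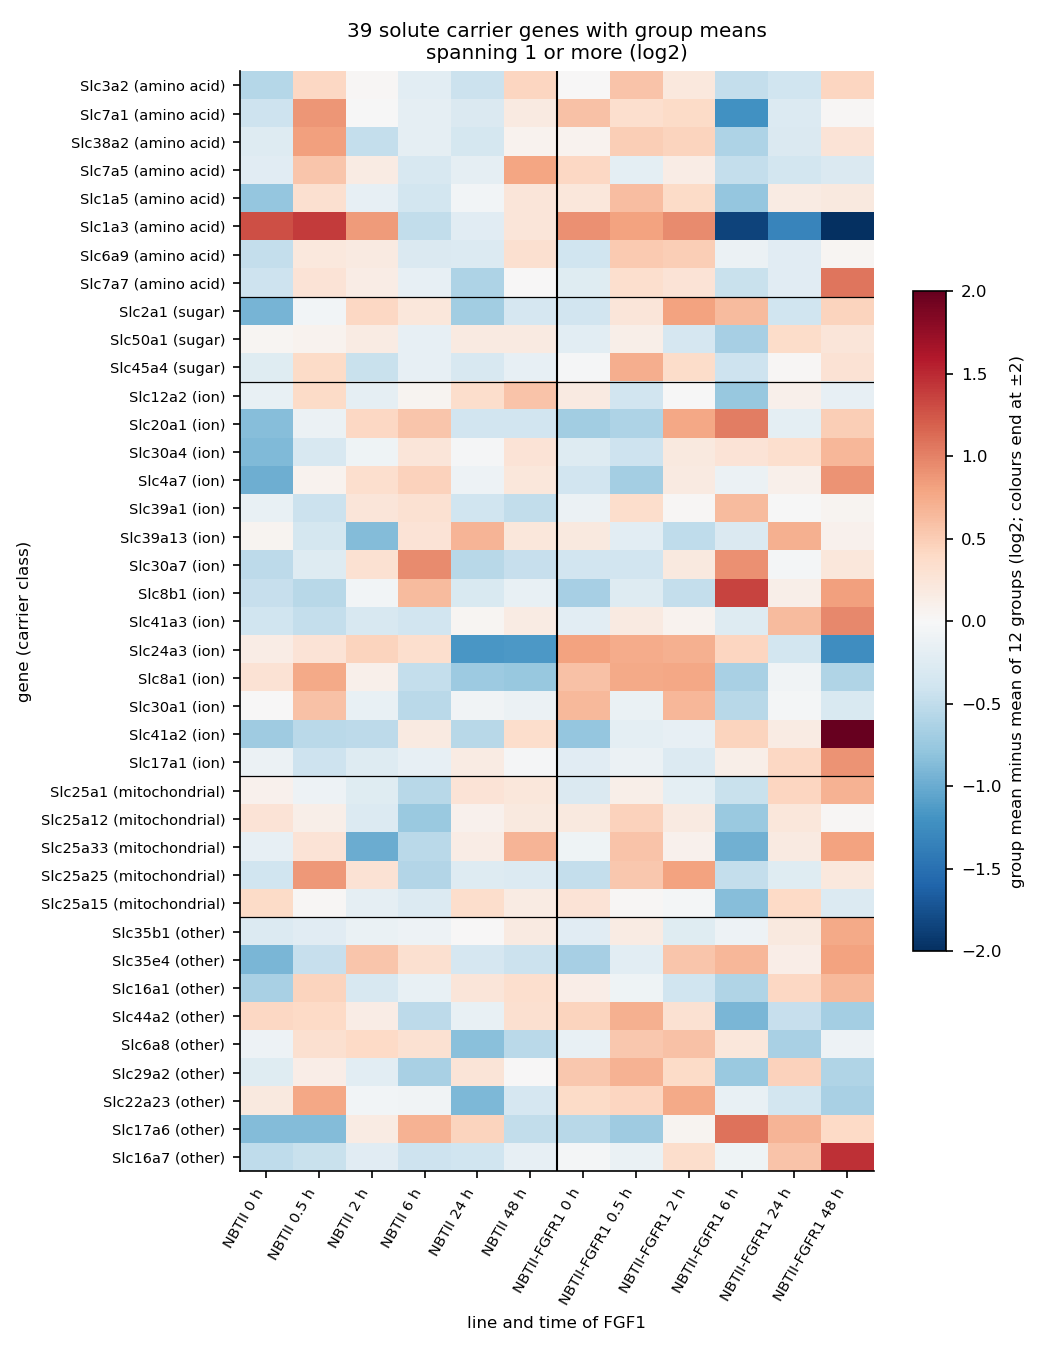
Group means of 39 solute carrier genes, each minus the mean of its 12 groups (colour, log2, ending at 2 either way), by carrier class (rows) and by line and time (columns). They are the genes named by rule whose 12 group means span 1 log2 unit or more. Genes outside that rule, such as Slc38a1, are not drawn even where their means span as much. Slc1a3 is dark blue at 6, 24 and 48 h and Slc41a2 dark red at 48 h in NBTII-FGFR1, Slc24a3 is blue at 24 and 48 h in NBTII and at 48 h in NBTII-FGFR1, and Slc8b1 and Slc30a7 are red at 6 h in either line.

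Comparisons of 48 h with 2 h use no 0 h array. Of the 8 epithelial genes, 6 were called lower in this comparison in NBTII-FGFR1 and 3 in NBTII. In NBTII-FGFR1 24 genes rose and 14 fell (all genes 9.92% and 9.71%), and in NBTII 6 rose and 9 fell (all genes 2.74% and 2.89%). Called in the same direction in both lines were 4 rising genes, Slc25a30, Slc25a33, Slc39a13 and Slc41a3, and 4 falling ones, Slc22a15, Slc24a3, Slc6a8 and Slc8a1. They are 4 of 24 and 4 of 6 of the rising genes, and 4 of 14 and 4 of 9 of the falling ones. The share of all genes called the same way in both lines was not computed. The overlap is therefore not read as a trait of the carriers. Among these 8, Slc24a3 kept its call in all of the 18 fits in both lines, and each of the others lost it in some fit in 1 line or both. Slc6a8, the creatine transporter, read 7.88 and 8.17 at 2 h and 7.46 and 7.20 at 48 h in NBTII-FGFR1, and 7.86 and 7.83 and then 6.88 and 6.92 in NBTII. It fell in NBTII by 0.95 ± 0.17 (adjusted p = 0.0046), whereas the fall of 0.69 ± 0.17 in NBTII-FGFR1 was lost without replicate 2 of either time. The count of 38 in NBTII-FGFR1 became 16 or 17 without replicate 1 or 2 at 48 h, 24 without both doubted arrays and 18 in a fit of only these arrays. The count of 15 in NBTII became 9 without NBTII 2 h replicate 1 and 8 or 7 without replicate 1 or 2 at 48 h.

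Between the lines, averaged over 2, 6, 24 and 48 h, 19 solute carrier genes were higher in NBTII-FGFR1 and 21 lower (8.33% and 9.21%), against 9.18% and 8.9% of all genes, so that both shares were near the background. Of the 19 higher genes 12 were ion carriers, and of the 21 lower ones 5 were. The 3 mitochondrial carriers called were lower. The differences were mostly small: 4 of the 40 exceeded 0.5 in size and 19 were under 0.3. Of the 40, 17 were low genes, 11 of them lower and 6 higher, and 10 of these were under 0.3. The lower quartile of an array, near which low genes lie, was 4.36 to 4.41 in NBTII-FGFR1 at 2, 24 and 48 h against 4.42 to 4.54 in NBTII, and 4.46 and 4.53 against 4.44 and 4.45 at 6 h, and its part in these small differences was not tested. The same sign was seen at all 4 times in 23 of them. The count was 26 without NBTII-FGFR1 48 h replicate 2, 26 when probe sets below the median level were left out, and 36 without both doubted arrays.

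The arrays of the lines lay apart in the same direction at all 4 times in 5 genes higher in NBTII-FGFR1 and 5 lower, 2.19% each, against 2.42% and 2.86% of all genes. Of these 10, 8 were among the 40 called, and they were singled out after their values were seen. They were Slc16a7, the organic anion transporter Slc22a7, the heme transporter Slc48a1 and Slc2a1, higher in NBTII-FGFR1, and the nucleoside transporter Slc28a1, the amino acid transporter Slc7a8 and the mitochondrial carriers Slc25a11 and Slc25a48, lower there. Of these, Slc16a7, Slc22a7, Slc28a1 and Slc7a8 are low genes. Slc2a1 was higher by 0.39, 0.41, 0.30 and 0.78 at 2, 6, 24 and 48 h, and by 0.47 ± 0.08 on average (adjusted p = 0.0011). Slc16a7 was higher by 0.58, 0.33, 0.97 and 1.63, and by 0.88 ± 0.12 on average (adjusted p = 0.00035). Slc7a8, a low gene, was the only called one whose 8 arrays of one line all lay apart from the 8 of the other, at 5.13 to 5.39 in NBTII-FGFR1 and 5.43 to 5.66 in NBTII, with a difference of -0.25 ± 0.06 (adjusted p = 0.0074). The largest average difference, that of Slc1a3 (-1.28 ± 0.17, adjusted p = 0.00024), grew from 0.10 at 2 h to -2.79 at 48 h, and that of Slc41a2 (0.82 ± 0.14, adjusted p = 0.0015) from 0.36 to 1.95. The line by time test did not reach the threshold for Slc1a3 (adjusted p = 0.059).

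**Figure D5:**
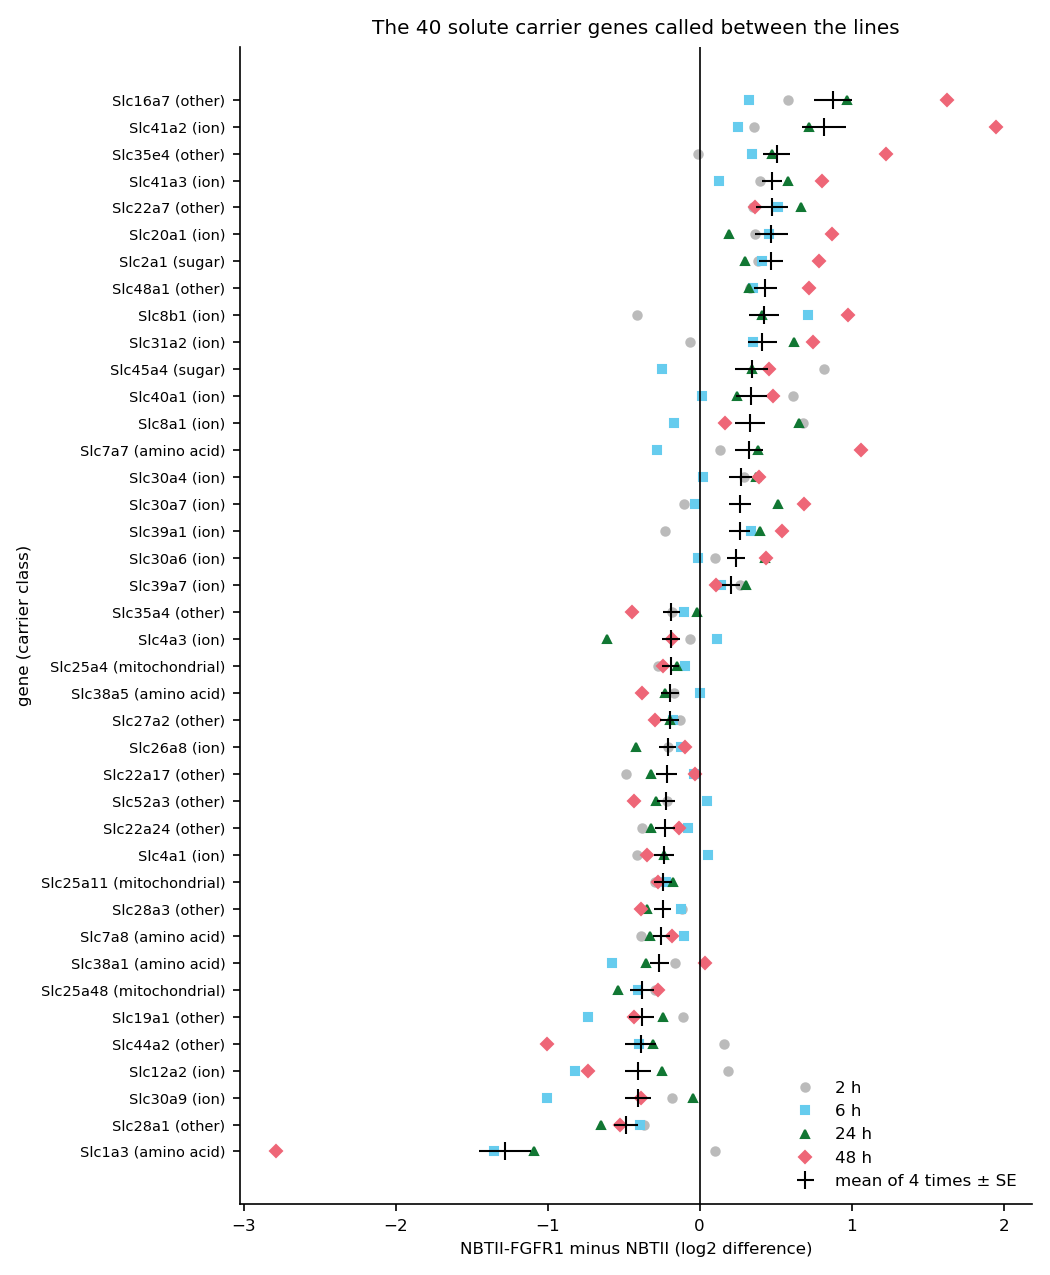
NBTII-FGFR1 minus NBTII (log2 difference, horizontal axis) of the 40 solute carrier genes called between the lines (rows), at 2, 6, 24 and 48 h (symbols) and as the mean of the 4 times with its SE (crosses). Slc16a7 and Slc41a2 lie farthest to the right and Slc1a3 farthest to the left, and in each of them the 48 h difference is the largest.

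Related genes were read from a list of carriers under other symbols and of proteins that assist or regulate carriers. Of 16 measured carriers under other symbols, 2 were called higher and 2 lower at 6 h and 3 higher at 48 h in NBTII-FGFR1. They include Sfxn1, a mitochondrial serine carrier (0.88 ± 0.14 at 48 h, adjusted p = 0.00054), and between the lines the organic anion carrier Slco4a1 was lower in NBTII-FGFR1 (-1.24 ± 0.19). Of 27 measured partners and regulators, 3 were called higher and 7 lower at 6 h, and 6 higher and 4 lower at 48 h. For either list the shares of all genes were 10.4% higher and 12.5% lower at 6 h and 12.3% and 11.4% at 48 h. Txnip, an arrestin-like protein that withdraws Slc2a1 from the surface, differed from 0 h by -1.53 ± 0.38 at 2 h and -1.37 ± 0.38 at 6 h in NBTII-FGFR1, and was called lower at either time. Ddit3, a factor of the stress and amino acid response, was higher at 48 h by 2.66 ± 0.37. The transferrin receptor gene Tfrc was lower at 6 h (-1.29 ± 0.18), and Mtf1, the zinc-sensing factor of metal response genes, was higher by 0.67 ± 0.13. Bsg, the partner of the monocarboxylate transporters, was called in no comparison. Calls of these related genes come from the main fit and were not followed through the fits that left out arrays.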

How the data were processed

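Total RNA of 21 samples was hybridised to 1 Affymetrix array each. The deposited table holds log2 values made by the authors with RMA, per the submitters' processing notes, which name no version. RMA corrects for background, quantile-normalizes the arrays and summarises each probe set by median polish. Differences are thus relative to the rest of the array, and the arrays' distributions are close but not identical (lower quartiles of 4.36 to 4.54). Gene symbols came from the platform annotation: of 15923 probe sets, 57 controls were left out, 12783 had 1 symbol, 312 several and 2771 none.

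A group-means model of the 12 groups was fitted to all 15866 probe sets with limma 3.58.1 (R 4.3.3), with empirical Bayes variances (9 residual and 5.678 prior degrees of freedom), and p-values were adjusted by Benjamini-Hochberg within each of 13 comparisons. A gene is called, and said to rise or fall, where the adjusted p of its probe set is under 0.05. Errors are the standard errors of that fit, and each group holds 1 or 2 arrays. Summaries used Python 3.11.15. All comparisons with 0 h of a line share its 0 h arrays, and those of NBTII rest on 1 array.

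Members, classes and lists were chosen with earlier results of these data known. Genes were named by rule: a list of 20, of which 18 had a probe set, the 4 highest and 4 lowest differences without overlap in each comparison, and in each class the 4 widest in range and the 2 highest in level. Slc20a2, Slc22a7, Slc22a15, Slc25a11, Slc25a14, Slc25a48, Slc28a1, Slc30a5, Slc38a1, Slc38a10, Slc39a11, Slc48a1, Slc4a2, Slc5a6, Slc6a5 and Slc7a6 fall outside that rule and were chosen after their values were seen. Alternatives were a filter on low values, the replicate number as a block, only the arrays compared, repeated quantile normalization, array weights, the mean of a gene's probe sets, and leaving out the 2 doubted arrays together or 1 array at a time. Array number limits the precision.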

Additional observations from a re-analysis of the deposited data

Results flagged for a closer look

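Slc25a33, the mitochondrial pyrimidine nucleotide carrier, differed between the lines in its course over 2 to 48 h (limma F test of line by time, adjusted p = 0.048). NBTII-FGFR1 minus NBTII was 1.09 at 2 h, -0.41 at 6 h, 0.03 at 24 h and 0.13 at 48 h. The 2 h difference involves 1 of the doubted arrays, NBTII-FGFR1 2 h replicate 1, which read 7.68 against 7.16 for its partner. Without both doubted arrays the test called none of the solute carrier genes, of which 48 had an unadjusted p under 0.05.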

How the results depend on the processing

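None of the 254 calls of a gene in a comparison turned its direction under any alternative. Calls lost were 0 of 207 with the filter on low values, 5 of 254 with the replicate block, 10 with the mean of all probe sets, 24 with repeated quantile normalization, 25 with array weights, 75 without both doubted arrays and 86 with only the arrays compared, and 659 of 4572 over the fits that left out 1 array.

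Counts that moved by over 1.5 times were as follows. With the filter on low values 26 genes were called between the lines and 0 in the line by time test. With only the arrays compared, 18 were called at 48 h against 2 h in NBTII-FGFR1, 1 at 0.5 h, 2 and 11 at 2 and 24 h from 0 h in NBTII-FGFR1, 0, 0 and 1 at 2, 6 and 48 h from 0 h in NBTII, and 0 in the line by time test. For the 2 zero counts in NBTII limma gave 21 and 32 genes an unadjusted p under 0.05. Array weights gave 9 at 0.5 h, 7 at 2 h in NBTII-FGFR1, 6 and 9 at 24 and 48 h in NBTII and 3 for line by time. Without both doubted arrays 24 were called at 48 h against 2 h, 9 and 8 at 2 and 24 h from 0 h in NBTII-FGFR1, 7 at 48 h in NBTII and 0 for line by time. Line by time was also 0 with repeated quantile normalization and with the mean of all probe sets. In these 5 settings limma gave 35 to 49 genes an unadjusted p under 0.05 for line by time.

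Leaving out 1 array at a time gave 26 to 49 genes between the lines, 16 to 42 and 7 to 18 at 48 h against 2 h in NBTII-FGFR1 and NBTII, 0 to 15 for line by time and 2 to 9 at 0.5 h. From 0 h it gave 4 to 16, 29 to 49, 3 to 21 and 31 to 51 at 2, 6, 24 and 48 h in NBTII-FGFR1, and 4 to 10, 8 to 17, 0 to 5 and 0 to 6 in NBTII. Where these counts were 0, limma gave 37 to 49 genes an unadjusted p under 0.05 for line by time and 29 at 24 or 48 h in NBTII. A lone array left in a group was taken to vary like the others. The single arrays of NBTII 0 h and of 0.5 h could not be left out.

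Replicate numbers are shared between groups. The differences between replicates 1 and 2 correlated between pairs of groups with r of -0.131 to 0.348 (median 0.0226, 15 of 36 over 0.1). Of 9 groups, 7 lay nearer to groups' arrays of their own number. Whether arrays of the same number share more than that number was not tested. With the number as a replicate block, line by time called 2 genes, and every other count stayed within 1.5 times.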
